A study of Mus musculus with 8 samples.

Results

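Histone genes, from the replication-dependent clusters to the variants made only in the testis, were followed in mouse testis after an antibody against PD-L1. Members were all rows of the deposited expression table whose symbols begin with Hist1h to Hist4h, H2af, H2al, H2bl, H3f3, H1f or Hils, which gave 110 rows of 57690 and no repeated symbol. By symbol, 67 were replication-dependent genes, 17 were replacement genes and 26 were testis variants, and 9 rows of the 110 were pseudogenes or an antisense RNA. RNA came from whole testes of C57BL/6 mice, 8 weeks of age. They were given 2 intraperitoneal injections of 200 µg of anti-PD-L1 or of an IgG2b isotype control, and testes were collected 7 days later. Each group held 4 libraries, and no genotype other than the strain is labelled. Values are in TPM (transcripts scaled to a fixed library total), which set each gene's reads against its length and each library to 1000000, so levels can be compared between genes but the read depth is unknown. Nothing in the labels ties the 4 libraries of a group to different animals, and the spread behind each p-value may thus be technical.

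Histones form the nucleosome from H2A, H2B, H3 and H4, and linker histone H1 binds the DNA between nucleosomes. Replication-dependent genes lie in clusters, are transcribed when DNA is copied, and usually give messenger RNAs that end after a short stem-loop rather than in a poly(A) tail. Replacement variants such as H3.3 and H2A.Z are made outside S phase from polyadenylated messenger RNAs. Male germ cells add variants of their own, among them the linker histone H1t in spermatocytes and HILS1 and H1T2 in spermatids. In elongating spermatids most histones are removed and replaced by transition proteins and then protamines, and the short H2A.L variants act with the testis H2B variant TH2B in that exchange.

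The 3′ stem-loop is shown first because it bears on how histone transcripts end. It can be found only where the annotated transcript reaches it. The 16-base form searched was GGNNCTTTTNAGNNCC, with each NN pair complementary, on the transcribed strand of every annotated transcript, and where a gene had several the one running furthest past the loop was taken. It was found in 45 members, 43 of the 67 replication-dependent genes together with H2afx and Hist1h1t. Over all 21951 protein-coding genes it was found in 49 (0.223%), a count that includes these 45. In 21 of the 43 the annotated transcript ended within 60 bases of the loop, and in 22 it ran on past it, 14 of these with AATAAA or ATTAAA downstream. There were 7 forms of the 16 bases, and the most common, shared by Hist2h2aa1, Hist1h2bp, Hist1h3a and Hist1h1c, stood in 26 genes. The stem and loop are in capitals below, with 5 flanking bases on each side, mm10.
Hist2h2aa1: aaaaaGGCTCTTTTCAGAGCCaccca
Hist1h2bp: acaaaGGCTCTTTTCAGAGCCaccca
Hist1h3a: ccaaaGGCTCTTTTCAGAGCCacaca
Hist1h1c: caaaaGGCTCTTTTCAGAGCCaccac
Hist1h4h: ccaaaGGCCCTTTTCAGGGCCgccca
H2afx: acaaaGGCCCTTTTAAGGGCCaccac
Hist1h1t: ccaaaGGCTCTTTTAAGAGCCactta
The annotated transcript ended 35 bases after the loop in Hist2h2aa1, 38 in Hist1h2bp, 37 in Hist1h3a and 46 in Hist1h4h. It ran on for 840 bases in Hist1h1c, 822 in H2afx and 185 in Hist1h1t. No match was found in Hils1, H1fnt, any H2al gene, Hist1h4a, Hist1h2ba or Hist1h2aa. The labels do not say whether poly(A) RNA was selected, a step that would lower transcripts ending at the loop, so levels of such genes may not show all of their RNA.

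Promoter motifs also differed between the groups. RefSeq windows from 250 bases before to 50 after the start (GRCm38.p6) matched 96 members. CCAAT, on either strand, was in 50 of 59 replication-dependent windows (84.7%), 7 of 26 testis variant windows (26.9%), 7 of 11 replacement windows (63.6%) and 37.4% of all 32851 promoters in the table. By type, CCAAT was in every H1, H2A, H2B and H3 window with a Hist symbol but in 3 of 12 H4 windows (25%). TATAAA was in 33 of the 59 (55.9%), in 4 of the 26 (15.4%), in 1 of the 11 (9.09%) and in 13.6% of all promoters. The octamer ATTTGCAT was in 7 of 18 H2A genes with Hist symbols (38.9%) and 7 of 16 such H2B genes (43.8%), in none of those for H1, H3 or H4, and in 1.74% of all promoters. Matches of different motifs were counted separately even where they overlapped, and a match describes letters, not a bound site. The window of Hist1h2ba, which encodes TH2B, is shown because it overlaps by 220 bases the window of Hist1h2aa, which encodes TH2A and is transcribed the other way, so that the pair shares the octamer. That of Hist2h2aa1 is shown because this H2A gene had the highest level among replication-dependent members, and that of H2afj because it had the largest difference among replacement members. Matches are in capitals.
Hist1h2ba (chr13:23934107-23934406, minus strand): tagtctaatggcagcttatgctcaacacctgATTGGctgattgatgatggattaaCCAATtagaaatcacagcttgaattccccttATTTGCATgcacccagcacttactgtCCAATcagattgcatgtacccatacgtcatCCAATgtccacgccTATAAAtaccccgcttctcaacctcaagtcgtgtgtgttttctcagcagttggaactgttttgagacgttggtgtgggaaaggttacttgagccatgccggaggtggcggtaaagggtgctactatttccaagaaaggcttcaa
Hist2h2aa1 (chr3:96245247-96245546, plus strand): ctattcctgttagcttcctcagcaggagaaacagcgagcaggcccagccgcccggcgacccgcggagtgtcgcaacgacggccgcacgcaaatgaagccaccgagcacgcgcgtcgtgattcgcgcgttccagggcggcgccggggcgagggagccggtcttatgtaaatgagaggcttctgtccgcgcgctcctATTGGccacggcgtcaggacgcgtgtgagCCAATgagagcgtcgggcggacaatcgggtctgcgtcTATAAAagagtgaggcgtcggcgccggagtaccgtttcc
H2afj (chr6:136807998-136808297, plus strand): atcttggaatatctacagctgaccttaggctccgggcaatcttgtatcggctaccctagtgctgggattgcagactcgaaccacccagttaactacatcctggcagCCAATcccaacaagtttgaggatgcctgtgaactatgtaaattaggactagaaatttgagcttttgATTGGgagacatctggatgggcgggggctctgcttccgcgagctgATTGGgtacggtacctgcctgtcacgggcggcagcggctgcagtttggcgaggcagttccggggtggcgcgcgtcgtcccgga

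The X-linked H2al1a and the autosomal H2al2a, the most abundant copies of their subfamilies, held none of these motifs, and their windows resembled each other across chromosomes. They had a longest shared run of 35 bases, in capitals below. It lay from 38 to 4 bases before the start of H2al1a and from 18 bases before to 16 after the start of H2al2a. The run was in 8 of the 32851 promoters (0.0244%), and all 8 were among the 18 windows of H2al genes: H2al1a, H2al1f, H2al1g, H2al1h, H2al1i, H2al1n, H2al1o and H2al2a.
H2al1a (chrX:11299007-11299306, plus strand): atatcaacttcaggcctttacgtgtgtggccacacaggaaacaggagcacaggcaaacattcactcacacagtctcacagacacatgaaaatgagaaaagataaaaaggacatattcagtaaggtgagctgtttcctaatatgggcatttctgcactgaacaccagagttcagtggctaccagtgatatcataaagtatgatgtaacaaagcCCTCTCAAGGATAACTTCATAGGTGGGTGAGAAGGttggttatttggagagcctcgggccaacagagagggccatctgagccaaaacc
H2al2a (chr2:17996909-17997208, minus strand): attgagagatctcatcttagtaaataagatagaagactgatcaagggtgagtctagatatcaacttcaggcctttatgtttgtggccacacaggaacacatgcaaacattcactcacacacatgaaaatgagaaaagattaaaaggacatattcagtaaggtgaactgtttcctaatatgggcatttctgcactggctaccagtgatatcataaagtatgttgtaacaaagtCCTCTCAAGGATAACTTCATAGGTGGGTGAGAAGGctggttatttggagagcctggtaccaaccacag

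Histone transcripts together made up 5960 ± 106 TPM after IgG and 5893 ± 135 TPM after anti-PD-L1 (SD, n = 4). A few genes carried most of this. The 10 highest members held 82.2% of all histone TPM and the 20 highest held 95.9%, while 52 members had a mean under 1 TPM and 11 were listed at 0 in all 8 libraries. Hils1, H1fnt, Hist2h2aa1, H3f3a, H2al2a, H3f3b and H2afz held 71.1%. They come from all 3 groups: linker and H2A variants of spermatids, the H3.3 genes H3f3a and H3f3b, the H2A.Z gene H2afz and a clustered H2A gene. Of the 67 replication-dependent genes 43 had a mean under 1 TPM, and 4 genes, Hist2h2aa1, Hist2h2aa2, Hist1h2bp and Hist1h4a, held 93.3% of the group's sum.

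**Figure D1:**
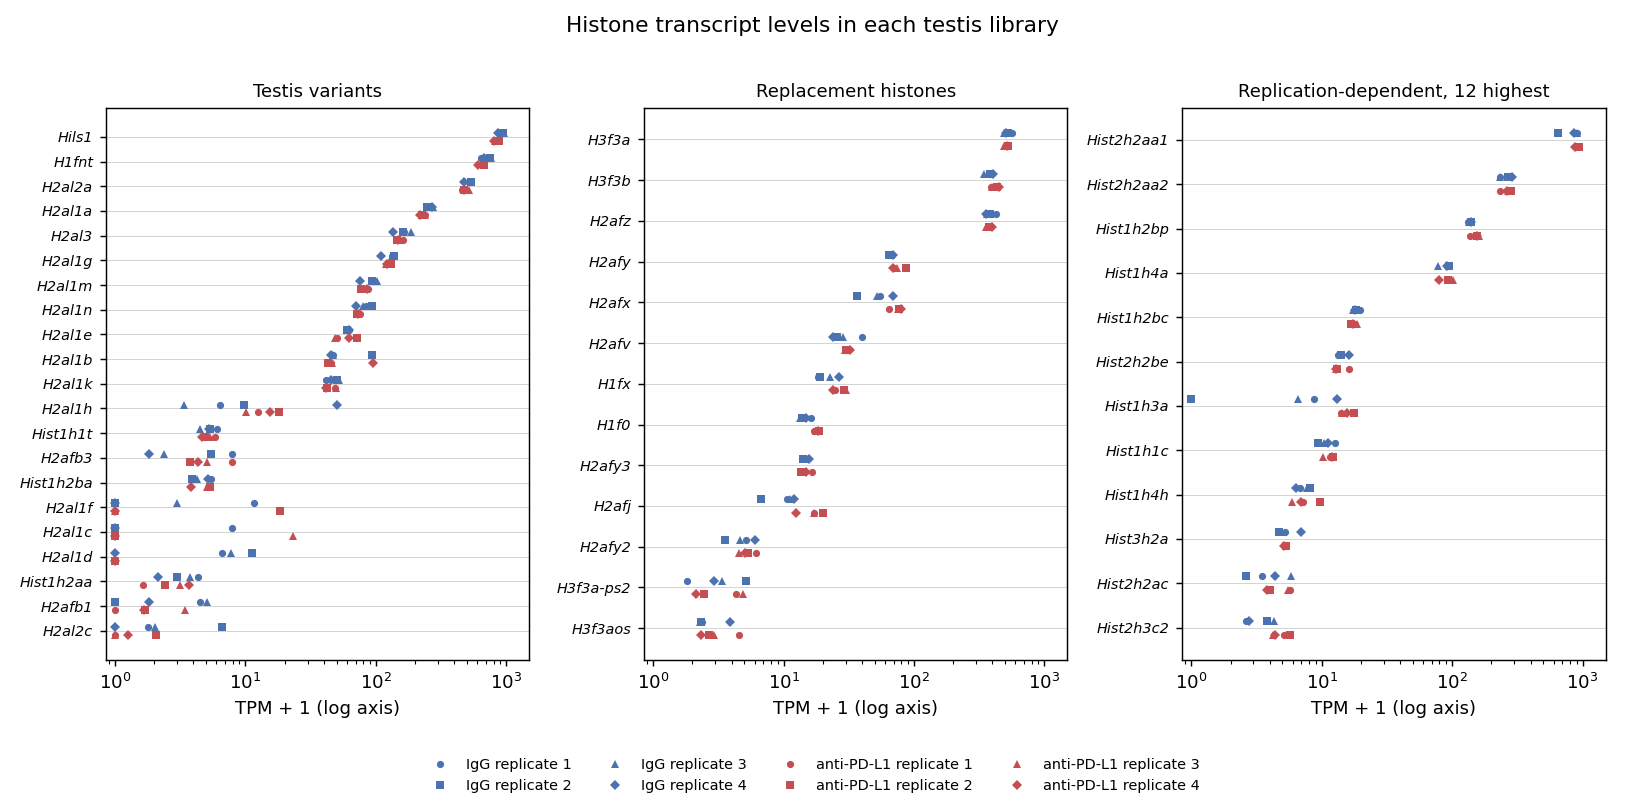
TPM + 1 on a log axis for the testis variants and replacement genes whose mean reached 1 TPM and the 12 highest replication-dependent genes; each point is a library (blue IgG, red anti-PD-L1, marker shape by replicate number). Hils1 lies between 801 and 961 TPM in all 8 libraries, while H2al1c, H2al1d and H2al1f are listed at 0 in most of them.

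By position, 55 members lay on chromosome 13 between bases 21715763 and 23934851 of mm10, the large Hist1 cluster, but only 18 of these reached 1 TPM and their means summed to 310.2 TPM. The 10 members on chromosome 3 between 96219865 and 96270132, the Hist2 cluster, summed to 1148 TPM, nearly all of it from Hist2h2aa1 and Hist2h2aa2. On chromosome X, 15 H2al genes between 9283764 and 14211661 summed to 875 TPM. Among the members outside the replacement group, 88 had an unspliced annotated transcript, 3 had 2 exons and 2 had 3 exons.

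Within this near-constant total, the testis variants held a smaller share after anti-PD-L1. They summed to 2987, 3193, 3223 and 2879 TPM in IgG replicates 1 to 4 and to 2791, 2893, 2848 and 2746 TPM in anti-PD-L1 replicates 1 to 4. As a share of histone TPM this was 51.5% ± 2.56 against 47.9% ± 0.557 (SD, n = 4), and each anti-PD-L1 library lay below each IgG library. Replication-dependent genes held 24.19, 20.74, 23.69 and 25.16% in IgG libraries and 25.42, 25.97, 26.26 and 25.23% in anti-PD-L1 libraries. These groups did not overlap either, although IgG replicate 4 and anti-PD-L1 replicate 4 differed by less than 0.1 percentage point and IgG replicate 2 lay lowest. The replacement share was 25.0% ± 1.34 against 26.4% ± 0.871, with overlap. The shares sum to a fixed total, so the smaller share of 1 group raises the others. By histone type, H1 genes summed to 1671 ± 98.1 and 1548 ± 66.5 TPM, H2A genes to 3093 ± 128 and 3091 ± 69.8, H2B genes to 179.3 ± 4.89 and 193.9 ± 9.12, H3 genes to 913.6 ± 45.4 and 953 ± 36.5, and H4 genes to 102.6 ± 8.07 and 106.8 ± 9.33. The TPM listed for H2B and H4 genes was a small fraction of that for H2A genes in every library. All H4 genes, and all H2B genes but Hist1h2ba, were in the replication-dependent group. Whether poly(A) RNA was selected is not stated, so the listed values may not show all of their RNA.

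**Figure D2:**
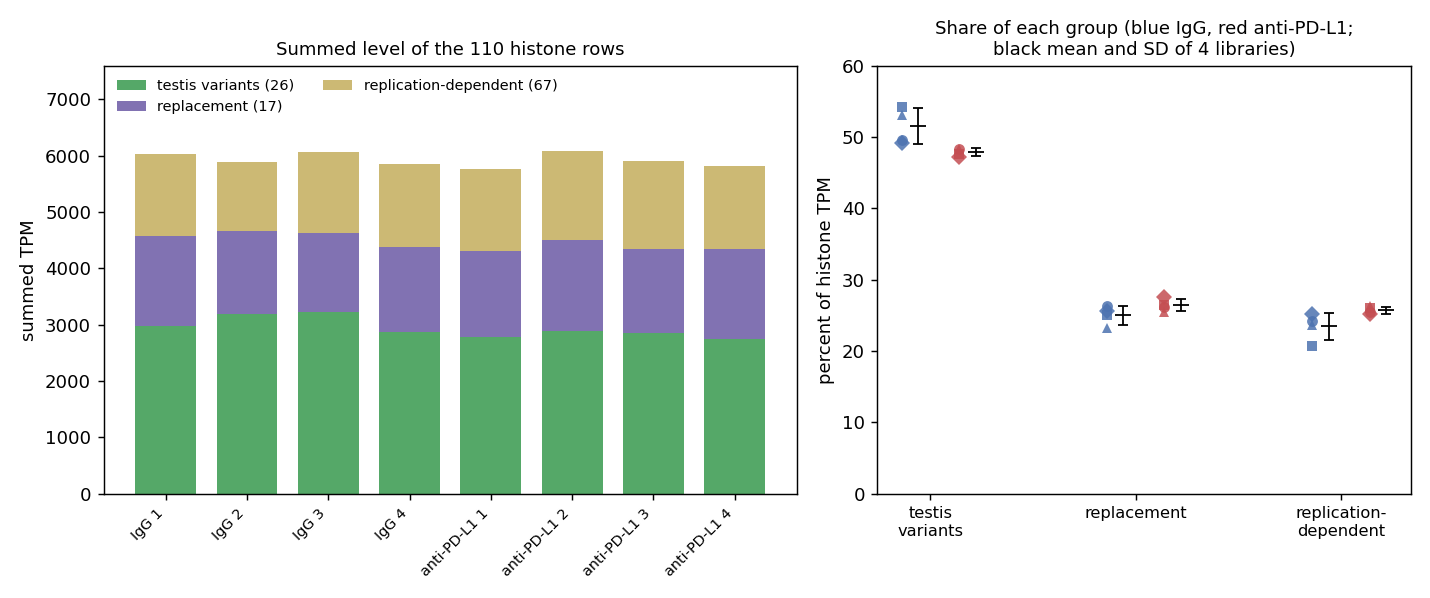
Left, summed TPM of the 110 histone rows in each library, stacked by group; right, each group's percent of histone TPM, with points for libraries and black bars for mean and SD of 4. All 4 anti-PD-L1 libraries lie between 47.2 and 48.4% for testis variants, below the IgG libraries at 49.2 to 54.3%.

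No histone gene passed the test. In limma on log2(TPM + 1), with Benjamini-Hochberg adjustment over the 20343 genes whose mean reached 1 TPM, 0 of the 58 histone genes that met that filter and 0% of all tested genes had an adjusted p under 0.05. The smallest adjusted p of a histone gene was 0.653 and of any gene 0.0738. At an unadjusted p under 0.05, 7 histone genes were higher (12.1%) beside 3% of all tested genes, and 3 were lower (5.17%) beside 2.22%. Groups did not overlap for 4 that were higher (6.9%) beside 1.76% of all tested genes and for 1 that was lower (1.72%) beside 1.23%. With so few genes on each side these shares rest on few members, which are named below. After rescaling with TMM factors (trimmed means of the ratios between libraries) the split of all tested genes by that criterion came to 482 above and 526 below, and after quantile normalization 524 and 596, against 611 and 452 as designed. Of the 58, 4 met the filter only through their IgG level (H2al1d, H2afb1, Hist1h2bb and H2al2c) and 3 only through their anti-PD-L1 level (Hist1h2ag, Hist2h3c1 and Hist1h2ap). At an unadjusted p under 0.05 the 7 higher genes include Hist1h2ag and the 3 lower genes include H2al1d, whose directions were set by the filter.

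Testis variants were mostly lower and the other 2 histone groups mostly higher, by small amounts and with none past the threshold. Of the 21 testis variants tested 17 had a lower mean log2 value and 4 a higher one, with a median difference of -0.11, while 41.7% of all tested genes were lower and their median was 0.03. Of the 13 replacement genes 11 were higher and 2 lower, median 0.14. Of the 24 replication-dependent genes 18 were higher and 6 lower, median 0.08; with either TMM factors or quantile normalization 9 were lower. The 7 members that met the filter through 1 group had a direction set by that filter, and without them 14 of 18 testis variants were lower (median -0.09) and 15 of 20 replication-dependent genes were higher (median 0.06). With the libraries that listed the most genes (IgG replicate 4 and anti-PD-L1 replicate 1) left out, 18 testis variants, 5 replacement genes and 10 replication-dependent genes were lower. All 10 testis variants with a mean of at least 50 TPM were lower, with a median of -0.11. Of these, H2al1b and H2al1e changed sign under some alternatives. All 6 in which under 10% of the transcript's 75-base windows occurred in another gene were also lower, although Hist1h1t changed sign when some libraries were left out. All 9 replacement genes with so little sharing were higher, with a median of 0.16. Of 3 replication-dependent genes of that kind 2 were higher and 1 lower. Among the 9, the pseudogene H2afy3, at 0.01, changed sign under several alternatives. H2afv, H2afy2 and the antisense RNA H3f3aos also changed sign when some libraries were left out. At a mean of at least 50 TPM 3 of 5 replacement genes were higher and 2 lower, and all 4 replication-dependent genes were higher. Of these 4, Hist2h2aa2 and Hist1h4a changed sign when some libraries were left out.

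**Figure D3:**
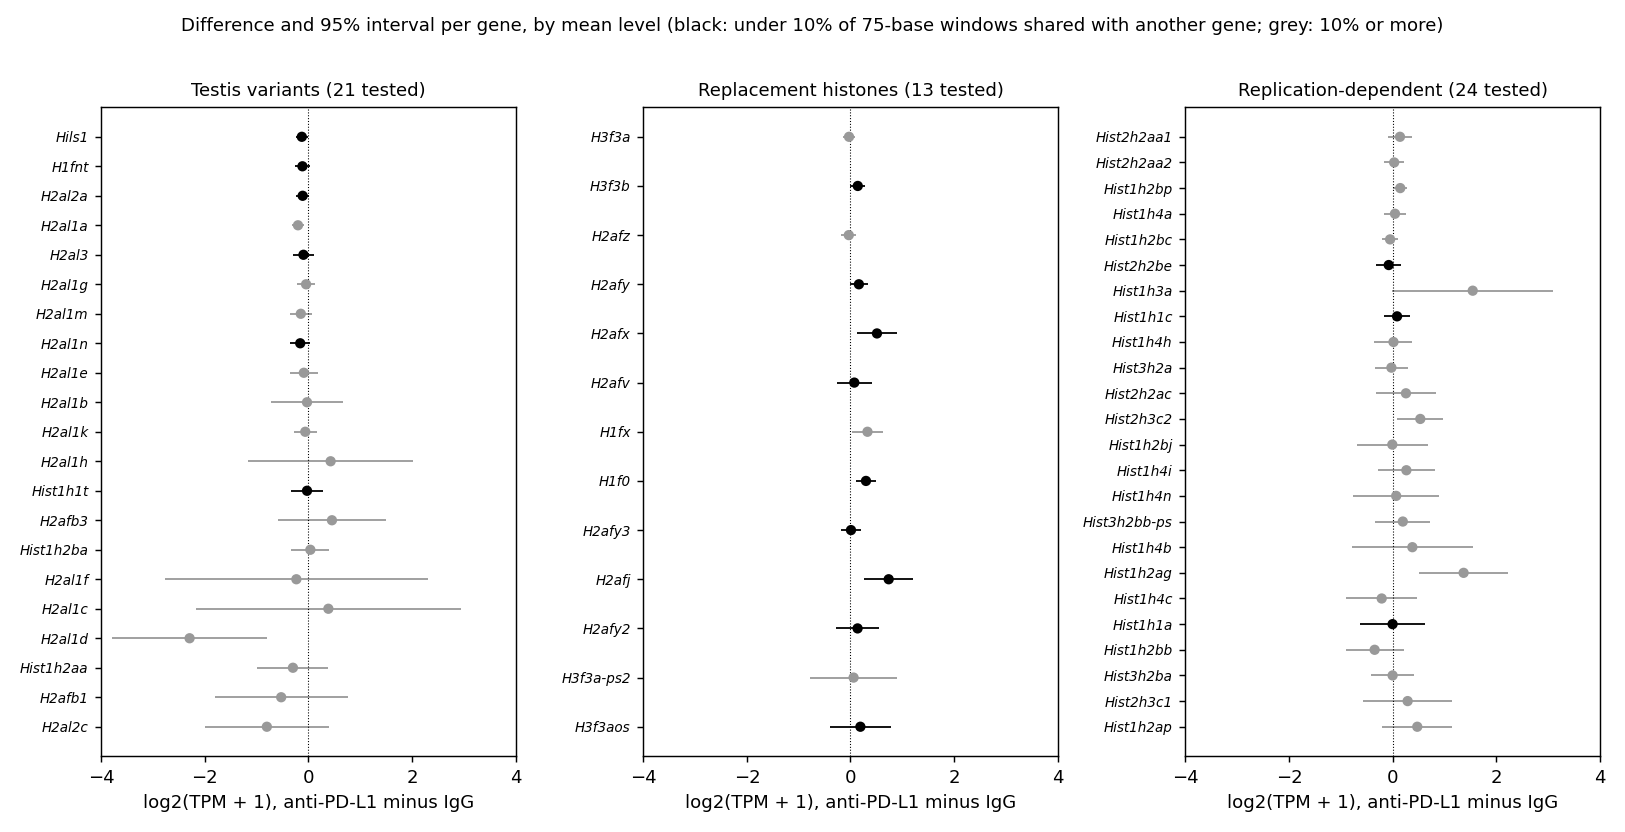
Difference in log2(TPM + 1), anti-PD-L1 minus IgG, with its 95% interval, for the 58 tested histone genes in order of mean level within each group; black marks genes with under 10% of 75-base windows shared with another gene. Intervals widen down each panel, and those of most genes include 0.

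Among linker histones of the testis, Hils1, the spermatid gene on chromosome 11 (mm10, 94967593 to 94968456, plus strand, 1 exon), had the highest mean of all members. It was at 885.34, 938.38, 961.03 and 868.17 TPM in IgG libraries and at 842.46, 886.47, 815.23 and 801.28 TPM in anti-PD-L1 libraries. Only anti-PD-L1 replicate 2 reached into the IgG range. The log2 difference was -0.13 (SE 0.05), unadjusted p = 0.0302 and adjusted p = 0.885 in limma. H1fnt, which encodes the spermatid linker histone H1T2 (chromosome 15, 98255986 to 98257293, minus strand), was at 643.55, 752.99, 764.52 and 670.25 TPM in IgG libraries and at 649.18, 680.02, 671.39 and 609.39 TPM in anti-PD-L1 libraries, with overlap and a difference of -0.11 (SE 0.07). Without IgG replicate 3 that difference was -0.08. Hist1h1t, the H1t gene of spermatocytes, was far lower, between 3.46 and 5.07 TPM in all 8 libraries, and its difference of -0.03 (SE 0.13) changed sign when some libraries were left out. The stem-loop was found in the annotated transcript of Hist1h1t and not in those of Hils1 and H1fnt.

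The H2A.L genes encode short H2A variants of late spermatids. H2al2a (chromosome 2, 17996417 to 17996958, minus strand), whose product is known as H2A.L.2, was at 520.21, 533.04, 539.70 and 474.21 TPM in IgG libraries and at 453.40, 474.30, 513.13 and 473.12 TPM in anti-PD-L1 libraries. The ranges overlapped, and the difference was -0.11 (SE 0.06). None of its 75-base windows occurred in another gene, which sets it apart from most X-linked copies. H2al3 was at 161 ± 19.8 and 150 ± 6.38 TPM (SD, n = 4), a difference of -0.10 (SE 0.09) that was -0.03 without IgG replicate 3, and -0.20 when IgG replicate 4 was left out together with anti-PD-L1 replicate 1.

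H2al1a was the 1 tested testis variant whose groups did not overlap. This X-linked copy (11299257 to 11299757, plus strand) was at 262.54, 245.35, 274.84 and 268.57 TPM in IgG libraries and at 235.71, 223.22, 238.44 and 216.82 TPM in anti-PD-L1 libraries. The difference was -0.20 (SE 0.05, 95% interval -0.32 to -0.08), unadjusted p = 0.00377 and adjusted p = 0.653 in limma. It stayed between -0.23 and -0.18 under all 17 alternatives. Of its windows 98.1% also occurred in H2al1 copies or other genes, so its level depends on how reads were divided between them.

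The 14 H2al1 copies were therefore also summed, which depends less on that division. The sum was 748.95, 787.27, 755.88 and 719.41 TPM in IgG libraries and 670.24, 690.07, 682.16 and 702.46 TPM in anti-PD-L1 libraries. Each anti-PD-L1 library lay below each IgG library, with means of 752.9 ± 27.9 and 686.2 ± 13.5 TPM (SD, n = 4). Among the 11 copies tested 9 were lower and 2 higher, with a median of -0.09. The 9 include H2al1d, whose direction was set by the filter. H2al1n, in which only 3.18% of windows were shared, was at 82.77, 92.81, 79.10 and 68.91 TPM against 74.93, 70.89, 70.23 and 72.15 TPM, with overlap, a difference of -0.16 (SE 0.08) that was -0.09 without IgG replicate 2. H2al1m was lower by a like amount, -0.15 (SE 0.09), and H2al1g, H2al1e and H2al1k by -0.04, -0.09 and -0.06. With each library left out these ranged from -0.24 to -0.09 for H2al1m, from -0.12 to -0.01 for H2al1g and H2al1k, and from -0.20 to -0.01 for H2al1e, which turned to 0.02 with array quality weights. H2al1e was nearest to 0 without anti-PD-L1 replicate 3, H2al1g without IgG replicate 2, and H2al1m and H2al1k without IgG replicate 3.

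Several copies took values that jumped between libraries. H2al1b was at 45.59, 92.41, 45.79 and 44.54 TPM in IgG libraries and at 44.50, 42.05, 45.51 and 93.68 TPM in anti-PD-L1 libraries, so that IgG replicate 2 and anti-PD-L1 replicate 4 stood apart at about the same height. The sum of the copies was also highest in its group in these libraries, at 787.27 and 702.46 TPM. H2al1h was at 5.40, 8.76, 2.38 and 49.00 TPM against 11.45, 17.16, 9.04 and 14.31 TPM. H2al1d was at 5.65, 10.20, 6.75 and 0 TPM against 0 in all 4 anti-PD-L1 libraries. Its fitted difference of -2.29 (SE 0.66) had an adjusted p of 0.657 in limma, and of 0.00393 without IgG replicate 4, where its only IgG value of 0 is left out. H2al1f was above 0 in IgG replicates 1 and 3 and anti-PD-L1 replicate 2, and H2al1c in IgG replicate 1 and anti-PD-L1 replicate 3. In these 4 copies of low level (H2al1c, H2al1d, H2al1f and H2al1h) every 75-base window occurred in another gene, so a listed 0 does not show that a copy was silent. Summed with H2al1i, which was listed at 0, they gave 28.64, 18.96, 11.12 and 49.00 TPM in IgG libraries and 11.45, 34.48, 31.19 and 14.31 TPM in anti-PD-L1 libraries, with overlap.

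**Figure D4:**
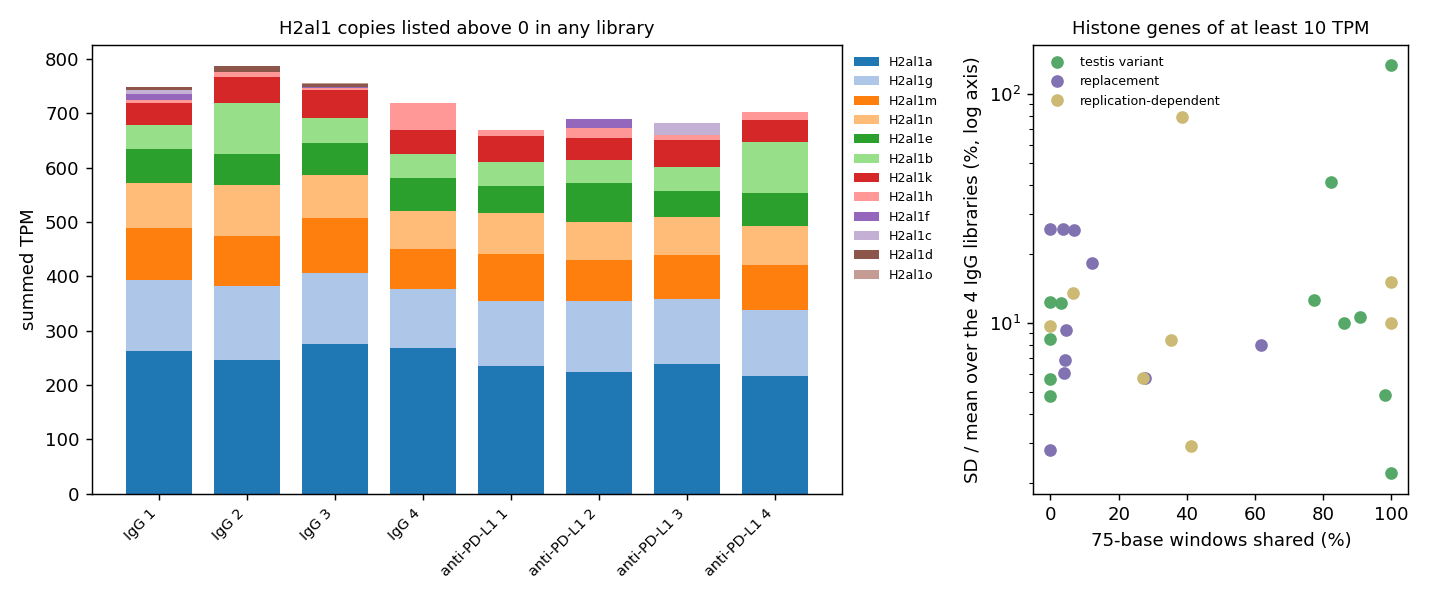
Left, TPM of each H2al1 copy stacked by library; right, SD over mean of the 4 IgG libraries (log axis) against the percent of 75-base windows shared with another gene, for histone genes of at least 10 TPM. The stacks are 719 to 787 TPM high in IgG libraries and 670 to 702 TPM in anti-PD-L1 libraries, and H2al1b takes a wider band in IgG 2 and anti-PD-L1 4.

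The remaining testis variants were low. Hist1h2ba (TH2B) was at 4.48, 2.92, 3.27 and 4.16 TPM against 4.13, 4.33, 4.07 and 2.80 TPM, and Hist1h2aa (TH2A) at 3.35, 2.00, 2.79 and 1.13 TPM against 0.65, 1.41, 2.15 and 2.68 TPM. Groups overlapped for both, with differences of 0.04 (SE 0.16) and -0.30 (SE 0.30). The first changed sign when some libraries were left out, and the other was -0.08 with anti-PD-L1 replicate 1 left out and -0.49 with IgG replicate 4 left out. H2afb3 and H2afb1, X-linked genes of the short H2A.B variant, ranged from 0.83 to 6.95 TPM and from 0 to 4.1 TPM, with differences of 0.46 (SE 0.46) and -0.52 (SE 0.56). That of H2afb3 was 0.12 without IgG replicate 4 and 0.82 without IgG replicate 1, and that of H2afb1 was -0.19 without IgG replicate 3 and -0.97 without IgG replicate 2. Y-linked H2al2c reached 5.56 TPM in IgG replicate 2 and at most 1.06 TPM elsewhere, and all of its windows are shared with H2al2b.

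Replacement genes included 3 of the 5 tested histone genes without overlap between the groups. H1f0 (chromosome 15, 79028450 to 79030504, plus strand) encodes H1.0, a linker histone of cells that have left the cycle. It was at 15.20, 12.76, 12.43 and 13.99 TPM in IgG libraries and at 16.09, 17.66, 16.60 and 17.34 TPM in anti-PD-L1 libraries, without overlap. The difference was 0.30 (SE 0.08, 95% interval 0.11 to 0.49), unadjusted p = 0.00561 and adjusted p = 0.657 in limma, and 4.49% of its windows were shared. H2afj (chromosome 6, 136808244 to 136810074, plus strand) encodes the H2A variant H2A.J. It was at 9.58, 5.73, 10.12 and 11.10 TPM against 16.14, 19.04, 16.21 and 11.54 TPM. The groups did not overlap, but IgG replicate 4 and anti-PD-L1 replicate 4 were nearly level. Its difference of 0.74 (SE 0.21) was the largest of the replacement genes, with unadjusted p = 0.00614 and adjusted p = 0.657 in limma. H2afy, the macroH2A1 gene on chromosome 13, was at 67.45, 63.93, 65.10 and 67.75 TPM against 69.82, 86.13, 72.82 and 68.63 TPM. Here the gap between the groups was under 1 TPM, and the difference of 0.16 (SE 0.07) was 0.09 without anti-PD-L1 replicate 2.

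H2afx encodes H2A.X, which is phosphorylated beside DNA breaks and over the unpaired sex chromosomes of spermatocytes, and its transcript carries the stem-loop shown above together with a long tail. It was at 54.26, 35.66, 50.93 and 67.97 TPM in IgG libraries and at 63.55, 76.06, 74.71 and 78.58 TPM in anti-PD-L1 libraries. IgG replicate 4 lay above anti-PD-L1 replicate 1, so the groups overlapped. The difference was 0.51 (SE 0.17), unadjusted p = 0.0153 and adjusted p = 0.778 in limma, and it was 0.34 without IgG replicate 2. H1fx, the gene of linker histone H1x, was at 20.6 ± 3.75 and 26 ± 3.03 TPM (SD, n = 4), a difference of 0.33 (SE 0.13), unadjusted p = 0.0355 and adjusted p = 0.914 in limma.

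**Figure D5:**
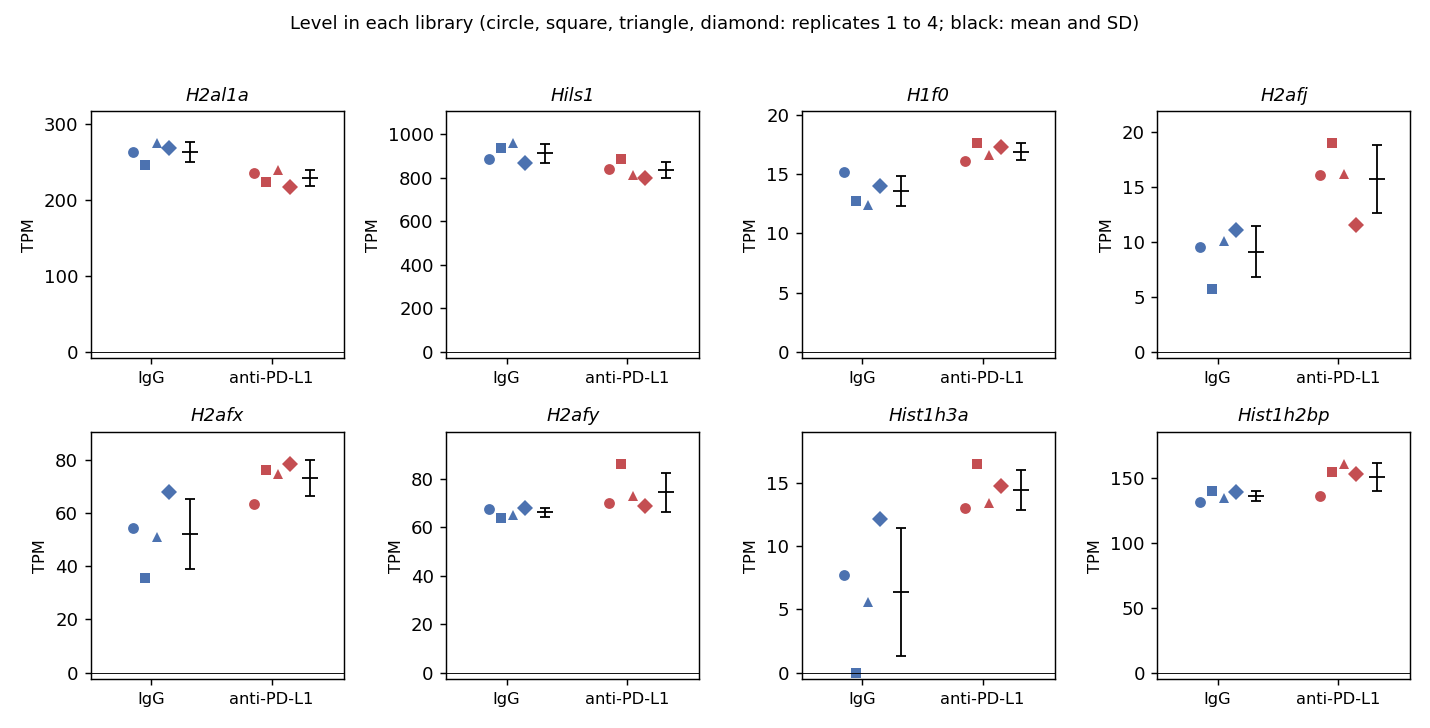
TPM in each library for 8 histone genes, with points by replicate and black bars for mean and SD of 4; a line marks 0. H2al1a is lower and H1f0, H2afj, H2afy and Hist1h3a are higher in all anti-PD-L1 libraries than in any IgG library, while Hils1, H2afx and Hist1h2bp overlap.

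The abundant replacement genes differed less. H3f3a and H3f3b encode the same H3.3 protein. H3f3a was at 562.68, 524.19, 493.03 and 508.36 TPM against 512.66, 527.77, 490.65 and 515.70 TPM, a difference of -0.03 (95% interval -0.14 to 0.08) that was 0.02 after quantile normalization. H3f3b was at 377.36, 379.91, 342.75 and 405.68 TPM against 388.44, 428.53, 398.03 and 445.30 TPM, with overlap and a difference of 0.14 (SE 0.06, 95% interval -0.00458 to 0.29). H2afz, the H2A.Z.1 gene, was at 381 ± 30.5 and 372 ± 16.5 TPM (SD, n = 4), a difference of -0.03 (95% interval -0.17 to 0.11). H2afv, the H2A.Z.2 gene, was at 28.6 ± 7.36 and 29.5 ± 1.13 TPM, with IgG replicate 1 highest at 39.27 TPM. H2afy2, the macroH2A2 gene, was at 3.86 ± 1.06 and 4.28 ± 0.698 TPM. The annotated pseudogenes H2afy3 and H3f3a-ps2 were at 13.7 ± 0.824 and 13.8 ± 1.21 TPM and at 2.33 ± 1.38 and 2.45 ± 1.35 TPM. H3f3aos, an antisense RNA that overlaps H3f3a, was between 1.28 and 3.56 TPM, and without a stated strand setting its reads cannot be told from those of H3f3a where they overlap.

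Among replication-dependent genes the highest levels belonged to the H2A pair of chromosome 3, which encode canonical H2A from opposite strands. Hist2h2aa1 (96245497 to 96246082, plus strand) was at 911.35, 645.45, 908.24 and 855.78 TPM in IgG libraries and at 895.60, 942.56, 919.89 and 875.95 TPM in anti-PD-L1 libraries, and Hist2h2aa2 (96239749 to 96240276, minus strand) at 254 ± 25.5 and 260 ± 20.7 TPM (SD, n = 4). All windows of both occurred in each other or in the overlapping models Gm20632, Gm20633 and Gm20634, which were at 1.24 to 10.3 TPM, so their split is uncertain. Their sum was 1143.83, 912.02, 1142.19 and 1140.20 TPM against 1126.28, 1222.20, 1185.93 and 1137.90 TPM. IgG replicate 2 alone lay below 1126 TPM, and the difference of Hist2h2aa1, 0.14 (SE 0.10), was 0.03 without it.

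Hist1h2bp, an H2B gene, was at 131.38, 139.72, 134.23 and 138.94 TPM in IgG libraries and at 135.83, 154.42, 161.08 and 153.32 TPM in anti-PD-L1 libraries. Only anti-PD-L1 replicate 1 fell within the IgG range, and the difference was 0.15 (SE 0.06), unadjusted p = 0.0325 and adjusted p = 0.895 in limma. Hist1h4a, the highest H4 gene, was at 88.0 ± 7.40 and 91.0 ± 9.44 TPM (SD, n = 4), with full overlap. No stem-loop was found in its annotated transcript, nor in those of Hist1h2bc, at 17.3 ± 0.992 and 16.7 ± 0.736 TPM, and Hist2h2be, at 13.4 ± 1.31 and 12.7 ± 1.6 TPM. Hist1h1c, the H1.2 gene, was at 9.91 ± 1.33 and 10.5 ± 0.877 TPM.

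Hist1h3a was the 1 tested replication-dependent gene without overlap (chromosome 13, 23761853 to 23762386, minus strand). It was at 7.76, 0, 5.63 and 12.16 TPM in IgG libraries and at 13.02, 16.54, 13.42 and 14.74 TPM in anti-PD-L1 libraries. The difference of 1.55 (SE 0.69), unadjusted p = 0.0513 and adjusted p = 0.96 in limma, was 0.75 without IgG replicate 2, which is listed at 0. Hist2h3c2, another H3 gene, was at 1.64, 2.83, 3.31 and 1.76 TPM against 4.10, 4.67, 3.21 and 3.36 TPM, a difference of 0.54 (SE 0.19), adjusted p = 0.84 in limma. Hist1h2ag, an H2A gene with 77.6% of windows shared, was at 1.6, 0, 0.36 and 0 TPM against 1.40, 4.16, 3.85 and 1.64 TPM. Its difference was 1.37 (SE 0.38) with adjusted p = 0.657 in limma, and it met the filter only through the anti-PD-L1 libraries. Among the 52 members under the filter 3 did not overlap, Hist1h2ad and Hist1h3f higher and Hist1h2ac lower, all at 2.14 TPM or less. Hist1h2ac lay between 0.05 and 0.15 TPM and Hist1h3f between 0 and 0.48 TPM. None of the 3 was tested, and the share without overlap among all genes under the filter was not taken, so they are not read as differences. The other named genes, Hist1h4h, Hist3h2a and Hist2h2ac, had means of 3.09 to 6.41 TPM in the groups, all with overlap.

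IgG replicate 2 lay lowest, and anti-PD-L1 replicate 2 highest, in more members than any other library did. Anti-PD-L1 replicate 2 was the highest of the 8 in 12 of the 58 tested histone genes (20.7%) beside 9.48% of all tested genes. Of these 12, 7 were replication-dependent genes, 3 replacement genes and 2 testis variants. IgG replicate 2 was the lowest of the 8 in 12 of the 58 (20.7%) beside 11.6% of all tested genes. Of these, 8 were replication-dependent and 4 replacement genes, among them Hist2h2aa1, H2afx, H2afj and Hist1h3a. For testis variants the high values fell in IgG replicates 1, 2 and 3, which were highest in 4, 4 and 8 of the 21 genes. Over all tested genes these libraries were highest in 9.01, 7.80 and 7.43%. The low values fell in IgG replicate 4 and anti-PD-L1 replicate 4, which were lowest in 5 each, beside 6.00 and 8.84% of all tested genes. Of the 21, 11 are H2al1 copies, most of which share sequence, so these are not separate counts.

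The spread between IgG libraries rose with shared sequence over all tested members, but not steadily among members of at least 10 TPM. Over all tested members the median SD over mean of the IgG libraries was 12.2% for the 18 with under 10% of windows shared, 32.2% for 22 with 10 to 75% and 67.2% for 18 with at least 75%. Levels differ between these sets, and among members of at least 10 TPM the medians were 9.51% (n = 14), 8.00% (n = 7) and 10.6% (n = 9). Within the last set the range ran from 2.21% for H2al1e to 134% for H2al1h.

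Genes that make histone messenger RNA, carry histones, copy DNA or remove histones were taken from lists given by function, and none passed the adjusted threshold. Of 15 tested genes of histone mRNA synthesis and 3′ end processing 9 were higher and 6 lower, median 0.03. Slbp, whose product binds the stem-loop, was at 127 ± 2.53 and 130 ± 7.17 TPM (SD, n = 4), and Npat, an activator of histone transcription, at 7.68 ± 1.07 and 8.52 ± 1.12 TPM. Casp8ap2, or FLASH, which acts at histone gene loci and in 3′ end cleavage, was at 4.62, 8.63, 4.02 and 5.29 TPM against 11.17, 9.36, 10.33 and 7.73 TPM, with overlap. Its difference was 0.72 (SE 0.20), unadjusted p = 0.00695 and adjusted p = 0.657 in limma. Cpsf3, the endonuclease of 3′ end cleavage, differed by 0.13 (SE 0.07).

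Of 26 histone chaperones and exchange factors 22 were higher and 4 lower, median 0.06, with none at an unadjusted p under 0.05. Nasp, a chaperone of H3 and H4, was at 573 ± 30.5 and 606 ± 25.2 TPM, and Daxx, a chaperone of H3.3, at 75.4 ± 6.65 and 84.6 ± 5.38 TPM (SD, n = 4). Nap1l1, a chaperone of H2A and H2B, differed by 0.14 (SE 0.07). Of 25 genes of DNA replication 19 were higher and 6 lower, median 0.03, also with none at an unadjusted p under 0.05. Cdc45, part of the replicative helicase, differed by 0.11 (SE 0.06), and Fen1, the flap endonuclease, by -0.12 (SE 0.07).

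Of 16 genes of histone removal and protamine exchange 6 were higher and 10 lower, median -0.03. Brdt, which encodes a testis bromodomain protein that binds acetylated histones, was at 180.22, 167.47, 168.90 and 178.16 TPM in IgG libraries and at 201.59, 188.10, 206.37 and 186.83 TPM in anti-PD-L1 libraries, without overlap. Its difference was 0.17 (SE 0.05), unadjusted p = 0.00806 and adjusted p = 0.657 in limma. Transition protein and protamine genes lay on the other side, with differences of -0.21 for Tnp1, -0.19 for Tnp2, -0.21 for Prm1 and -0.16 for Prm2, of a size like those of Hils1, H1fnt, H2al2a and H2al1a. That of Tnp1 was -0.05 after quantile normalization.

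Markers of germ cell stages differed by amounts like those of the histone groups, none past the adjusted threshold. All 9 elongating spermatid markers were lower, with a median of -0.13 and sums of 61199 to 76738 TPM in IgG libraries and 58474 to 66424 TPM in anti-PD-L1 libraries. They include Tnp1, Tnp2, Prm1 and Prm2, already given above, which carried most of these sums. The part of elongating spermatid markers in the lower values of testis variants was not tested. Of 10 spermatocyte markers 9 were higher (median 0.11), and of 9 round spermatid markers 7 were higher (median 0.08). In whole-tissue RNA, fewer cells of a type and less RNA per cell cannot be told apart. Markers of Sertoli cells, in 6 of 9, and of macrophages, in 4 of 6, were higher, and none of 9 T and B cell markers had a mean of 1 TPM. Of 6 epididymis markers Lcn5 and Lcn8 were listed at 0. Only Rnase10 of that list reached a mean of 1 TPM, at 3.66 ± 0.385 and 3.615 ± 0.356 TPM (SD, n = 4). Leydig cell markers summed to 1170 to 1516 TPM in IgG libraries and 2091 to 3395 TPM in anti-PD-L1 libraries, although 5 of the 7 were lower. Insl3, a peptide hormone gene, carried the higher sum, with 874 ± 106 and 2210 ± 656 TPM (SD, n = 4) and adjusted p = 0.202 in limma. All 5 red blood cell markers were higher, with a median of 0.74 and sums of 34 to 209 TPM in IgG libraries and 50.5 to 159 TPM in anti-PD-L1 libraries. Adipocyte markers summed to 9.74 to 93.5 TPM in IgG libraries and 6.83 to 12 TPM in anti-PD-L1 libraries. Among the libraries IgG replicate 4 and anti-PD-L1 replicate 1 listed the most genes at 0.1 TPM or more, 28895 and 28830 against 26256 to 26651 in the other 6.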

How the data were processed

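RNA-seq of mouse testis compared 4 anti-PD-L1 libraries with 4 IgG2b isotype libraries, grouped and numbered by their titles. RNA was isolated with TRIzol, freed of genomic DNA with DNase I and prepared with a TruSeq RNA kit, per the labels' protocols. Values are deposited as TPM for every gene in every library, per the file headers, and each library summed to 1000000. In the submitters' processing notes CASAVA 1.8, HISAT2, StringTie, RSEM and mm10 are listed. The sources used here do not give the role of each tool, the annotation, the strand setting or how reads that match several genes were divided. TPM keeps no depth, so counting error could not be given. Each pair of libraries differed, with at most 2.48% of genes at equal values.

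Analyses used Python 3.11.15 (numpy 2.4.6, pandas 2.3.3) and R 4.3.3 with limma 3.58.1. Values were transformed to log2(TPM + 1), a scale that understates changes of low genes. The 20343 genes whose mean reached 1 TPM were fitted in limma with a group term and an intensity trend, with Benjamini-Hochberg adjustment and a threshold of 0.05. The fit was tested on simulated data. Ensembl identifiers were matched to GENCODE M21 (GRCm38, the same assembly as mm10), 55450 of 55536 in all and 110 of 110 members. Sharing is the percent of 75-base windows of a member's longest transcript found in a transcript of another gene. Promoter windows came from RefSeq, through the NCBI gene identifiers in the deposited table.

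The members and gene lists were chosen with earlier results of these data known. Named genes were testis variants and replacement genes of at least 1 TPM, the 12 highest replication-dependent genes, the 3 smallest p in each group, tested members without overlap, and the 2 smallest p of each related list. Slbp, Npat, Nasp, Tnp2, Prm1 and Prm2 were added for their function after values were seen. H2af-ps, listed at 0, was placed with the replacement genes after the table was seen. As alternatives the pseudocount was set to 0.1, the filter was dropped or raised to 5 TPM, and values were rescaled with TMM factors (trimming 30% of M and 5% of A values) or by quantile normalization. Array quality weights, a fit without the trend, the replicate numbers as a block, each library in turn left out, and IgG replicate 4 and anti-PD-L1 replicate 1 left out together were also run.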

Additional observations from a re-analysis of the deposited data

Results flagged for a closer look

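In groups of 4 libraries, 159 sets of values were examined for a library that stood far from its 3 neighbours (by Dixon's 95% critical value for 4 samples, which chance alone passes in about 1 set in 20), and 19 were found. Single H2al1 copies gave 7 of them. H2al1b was at 92.41 TPM in IgG replicate 2 and at 93.68 TPM in anti-PD-L1 replicate 4, beside 42.05 to 45.79 TPM in the other 6 libraries. H2al1h was at 49 TPM in IgG replicate 4, H2al1f at 17.32 TPM in anti-PD-L1 replicate 2, and H2al1c at 6.94 TPM in IgG replicate 1 and 22.15 TPM in anti-PD-L1 replicate 3. H2al1g was highest in anti-PD-L1 replicate 2 at 130.58 TPM, a narrow margin over 119.49 to 120.49 TPM, and the sum of H2al1b, H2al1e and H2al1a was highest in anti-PD-L1 replicate 4 at 371.31 TPM.

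IgG replicate 2 was the low library for the sum of replication-dependent genes, at 1220.05 TPM beside 1437.72 to 1473.06 TPM, for those of them with a stem-loop, at 1090.31 TPM, and for Hist2h2aa1 with Hist2h2aa2, at 912.02 TPM. The sum of H4 genes was lowest in IgG replicate 3 at 90.51 TPM. Hist1h2ba, at 2.8 TPM, and Hist3h2a, at 4.11 TPM, were lowest in anti-PD-L1 replicate 4, where H2afv was highest at 31.2 TPM. Hist2h2be was highest in anti-PD-L1 replicate 1 at 15.12 TPM, and H3f3aos in IgG replicate 4 at 2.92 TPM. Genes listed at 0.1 TPM or more numbered 28895 in IgG replicate 4 and 28830 in anti-PD-L1 replicate 1, each above the rest of its group.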

How the results depend on the processing

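Of 55 named genes, 35 kept the direction of their log2 difference and their side of the threshold wherever they were fitted, and 20 did not. There were 17 alternatives, and each included all 55 except the filter of 5 TPM, which kept 39. The count of all tested genes past the threshold in limma was 0 as designed, 1 with a pseudocount of 0.1, 5 with array quality weights, 8 with both IgG replicate 4 and anti-PD-L1 replicate 1 left out, and 0 to 15 with each library left out. The count of histone genes was 0 as designed, 1 with both left out and 0 to 1 with each library left out, H2al1d being that gene. With the replicate number as a block 0 genes passed. Deviations of same-numbered libraries correlated at -0.11, 0.10, 0.09 and -0.20 over genes, so the numbers were not taken as pairs. The median difference was -0.15 to -0.09 for testis variants and 0.05 to 0.13 for replication-dependent genes with each library left out, and that of replacement genes was 0.21 with array quality weights beside 0.14. With each library left out, the number lower was 15 to 19 of the testis variants, 2 to 5 of the replacement genes and 6 to 10 of the replication-dependent genes.

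Differences that changed sign included many near 0. Others were larger as designed, at 0.46 for H2afb3, 0.43 for H2al1h, 0.39 for H2al1c and -0.23 for H2al1f. With TMM factors H2afy3 was at -0.018 and Hist1h4h at -0.00965. After quantile normalization H3f3a was at 0.018, H2afy3 at -0.026 and Hist1h4h at -0.00931. With array quality weights H2al1e was at 0.017, H2afy3 at -0.00540, H2al1f at 0.58, H3f3a-ps2 at -0.31 and Hist3h2a at 0.074. With both of those libraries left out H2afv was at -0.010, H2afy3 at -0.00586, H2afb3 at -0.094, H3f3a-ps2 at -0.11, Hist1h4h at -0.0346 and Hist3h2a at 0.10. With each library left out the ranges were -0.0545 to 0.00890 for H3f3a, -0.066 to 0.019 for H2afz, -0.29 to 0.23 for H2al1b, -0.018 to 0.23 for H2afv, -0.10 to 1.20 for H2al1h, -0.043 to 0.047 for H2afy3, -0.10 to 0.044 for Hist1h1t, -0.00576 to 0.25 for H2afy2, -0.045 to 0.15 for Hist1h2ba, -1.28 to 0.52 for H2al1f, -0.75 to 1.13 for H2al1c, -0.19 to 0.30 for H3f3a-ps2, -0.00714 to 0.38 for H3f3aos, -0.010 to 0.086 for Hist2h2aa2, -0.014 to 0.12 for Hist1h4a, -0.12 to 0.12 for Hist1h4h and -0.085 to 0.10 for Hist3h2a. The cause of these changes was not tested. Shares of the 3 groups were the same when rows of a symbol were summed, since no symbol was repeated. Depth is unknown, so the level under which a value is noise could not be set.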
